A study of Mus musculus with 27 samples.

Results

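Triglyceride is built in fat cells from glycerol 3-phosphate and fatty acids in a short chain of enzyme steps. The 9 genes described here encode enzymes of that chain: Gpd1 and Pck1 (supply of the glycerol backbone), Gpam and Agpat2 (first and second acylation), Lpin1, Lpin2 and Lpin3 (removal of the phosphate) and Dgat1 and Dgat2 (last acylation). They were chosen by name from the pathway, with earlier results of these data known. Their counts beside the share of all genes are therefore description, not an unbiased comparison. Each was measured by 1 probe set, so that 9 of 9 genes were found among the 19938 genes tested.

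The arrays measured total RNA of 3T3-L1, a line of mouse preadipocytes that fills with fat droplets after hormonal induction. Every culture carried a pMIG construct, either empty (vector) or expressing Flag-ISL1, a tagged LIM homeodomain transcription factor. Induction began 2 days after confluence with 10% fetal calf serum, 350 nM insulin, 250 nM of the glucocorticoid dexamethasone, 0.5 mM isobutylmethylxanthine, an inhibitor of cAMP breakdown, and 400 nM biotin. By title, vector cells were taken at 0, 0.5, 1, 2, 4, 8 and 48 h and ISL1 cells at 0 h and 48 h, with 3 arrays called biological triplicates for each of these 9 groups. Cells of 0 h had received no mixture. The sample records of 0 h, of 0.5 to 8 h and of 48 h form separate number runs. Comparisons across these times also cross the runs, so a difference between runs cannot be told apart from time. Its part in the results was not tested. Whether the transduced cells were clones or pools is not stated in the labels. Values are log2 intensities, a level is given per array or as mean ± SD (n = 3), and a difference is a log2 difference ± the standard error of the limma fit. A gene passed the test at a Benjamini-Hochberg adjusted p under 0.05 over all 19938 genes.

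The construct could be followed through the Isl1 probe set, and at 48 h it ran against the titles. At 0 h its level was 7.34 ± 0.157 under the vector and 12.62 ± 0.0180 under ISL1, but at 48 h it was 7.65 ± 0.306 where the label reads ISL1 and 12.76 ± 0.0355 where it reads vector. Within the vector groups up to 8 h it was highest at 2 h, at 8.59. The 48 h arrays labelled ISL1 are therefore called low-Isl1 and those labelled vector high-Isl1, and the direction of each difference between them turns around if the titles are followed instead. Within groups the arrays correlated at 0.9931 to 0.9986 over all genes, and no 2 arrays were identical. Of the 8 measured fibroblast and preadipocyte markers 7 to 8 lay above the 95th percentile of olfactory receptor probe sets (7.32), a yardstick for signal from genes that such cells are not known to use. Over the group means 2 of 6 macrophage markers, Cd68 (8.21 to 9.33) and Cd14 (7.86 to 9.33), lay above it in every group, and the blood cell gene Ptprc (6.17 to 6.33) lay under it. Of 5 skeletal muscle markers 3 to 4 lay above it, of 3 hepatocyte markers 1 did (Apoa1, while Alb was at 5.36 to 5.55), and of 4 endothelial markers at most 1 did (Cdh5, while Pecam1 was at most 7.06). Of all 19938 genes 14110 had at least 1 group mean above this percentile, so that these counts alone do not mark a cell type.

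In cells the glycerol backbone comes mainly from glycolysis through Gpd1, the cytosolic glycerol 3-phosphate dehydrogenase, and, when glucose is scarce, from pyruvate through Pck1, the cytosolic phosphoenolpyruvate carboxykinase. Gpam, an acyltransferase of the mitochondrial outer membrane, adds the first fatty acid, and Agpat2, in the endoplasmic reticulum, makes phosphatidic acid with the second. The lipins turn phosphatidic acid into diacylglycerol, and Dgat1 and Dgat2, which are unrelated in sequence, make triglyceride from it. Loss of Agpat2 or of Lpin1 causes lipodystrophy in mice.

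**Figure D1:**
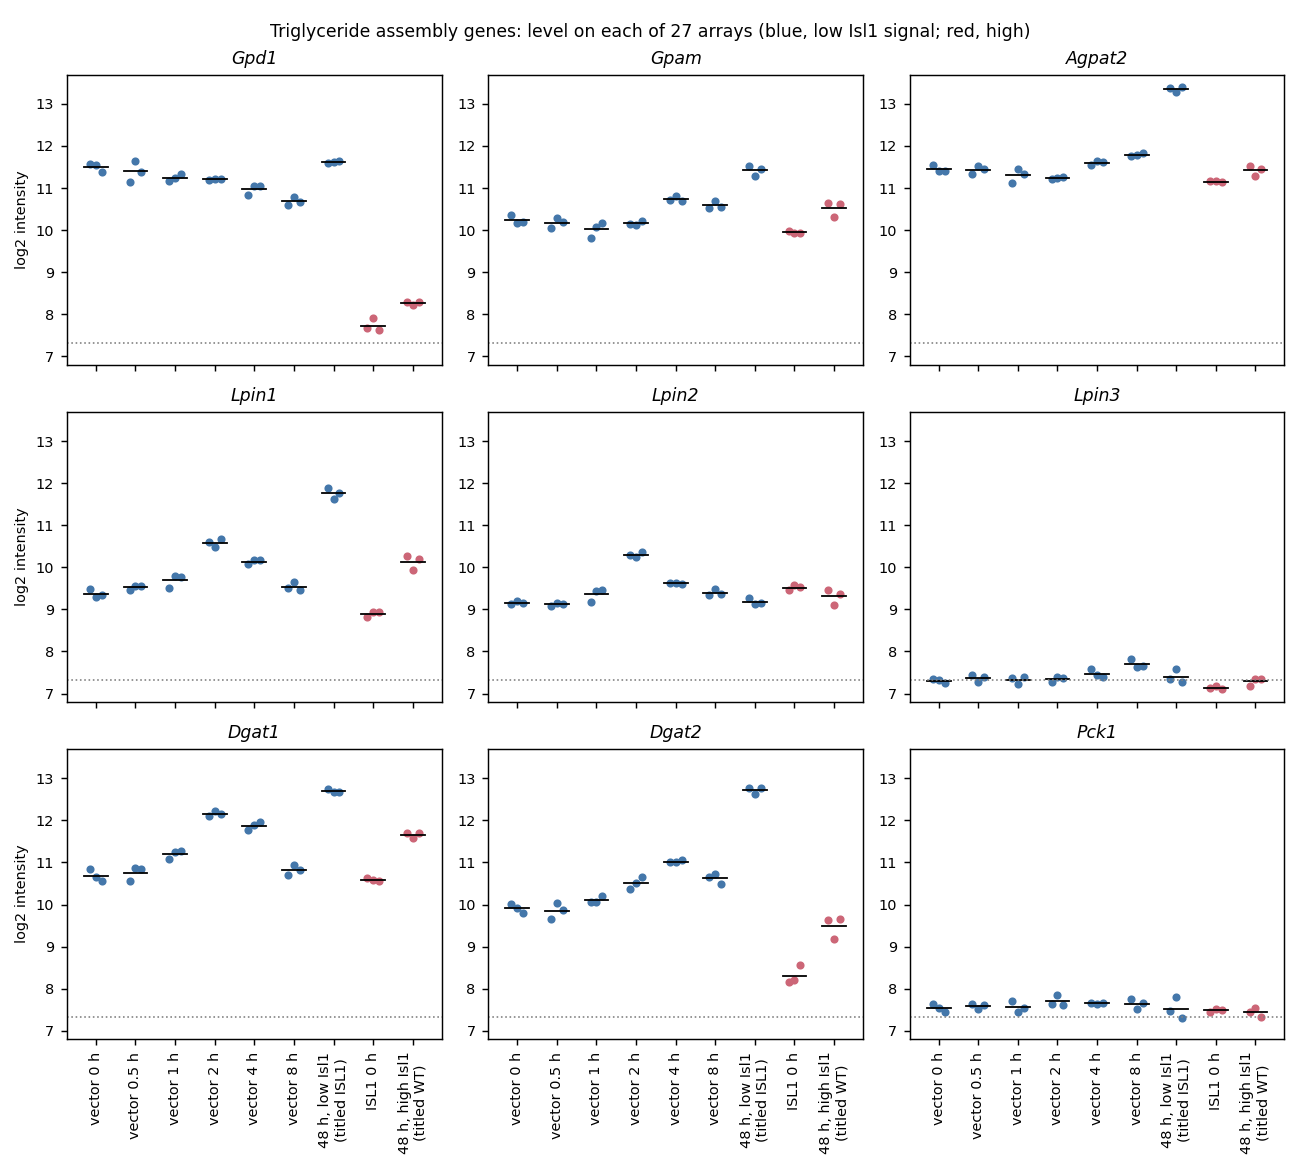
Level of each of the 9 genes (log2 intensity, y axis) on every array, by group (x axis). Points are single arrays, black lines are group means of 3 arrays, blue marks groups with low Isl1 signal and red those with high, and the dotted line is the 95th percentile of olfactory receptor probe sets (7.32). Agpat2, Lpin1, Dgat1 and Dgat2 are highest in the low-Isl1 48 h arrays, Gpd1 is low in both red groups, and Lpin3 and Pck1 stay near the dotted line.

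At 48 h in low-Isl1 cells 5 of the 9 genes stood above vector cells at 0 h, and these cover every step from the first acylation to the last. The share of all genes that were higher in this comparison was 21.3%, and 41.4% passed in either direction. The median difference of the 9 genes was 1.18, beside 0.06 for all genes. Among the 19938 genes Dgat2 had the 27th, Lpin1 the 40th, Dgat1 the 76th and Agpat2 the 94th highest difference. Gpd1, Lpin2, Lpin3 and Pck1 did not pass, and at an unadjusted p under 0.05 the limma count was 5 as well.

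Dgat2 made the largest rise of the set. Its vector arrays at 0 h read 10.01, 9.92 and 9.80 and the low-Isl1 48 h arrays 12.78, 12.64 and 12.78. The groups lay far apart, with a difference of 2.82 ± 0.117 (7.06-fold, adjusted p = 1.36e-16). Lpin1, whose product also acts as a transcriptional coactivator, read 9.49, 9.29 and 9.33 at 0 h and 11.90, 11.63 and 11.77 at 48 h. It rose by 2.39 ± 0.091, or 5.26-fold (adjusted p = 2.28e-17). Dgat1 rose from 10.85, 10.66 and 10.56 to 12.74, 12.67 and 12.68, a difference of 2.01 ± 0.085 (4.02-fold, adjusted p = 1.85e-16). Agpat2 went from 11.55, 11.41 and 11.41 to 13.37, 13.29 and 13.40. That is a difference of 1.90 ± 0.076 (3.72-fold, adjusted p = 6.86e-17). Gpam moved least among the risers, from 10.36, 10.18 and 10.19 to 11.53, 11.28 and 11.45 (1.18 ± 0.094, 2.27-fold, adjusted p = 5.48e-11). In all 5 genes, and by a small margin in Gpd1, every 48 h array lay above every 0 h array, which held in either direction for 48.8% of all genes.

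Gpd1, by contrast, was already high before induction. Its level was 11.50 ± 0.0986 in vector cells at 0 h and 11.62 ± 0.0294 in the low-Isl1 48 h arrays, and the difference of 0.12 ± 0.095 did not pass (adjusted p = 0.349). Lpin2 (0.03 ± 0.081, adjusted p = 0.828) and Lpin3 (0.10 ± 0.078, adjusted p = 0.315) did not pass either.

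The 48 h levels also stood apart from those of 8 h. Against vector cells at 8 h, 8 of the 9 genes differed in the low-Isl1 48 h arrays, 6 higher and 2 lower (background 30.6%, with 15.7% higher and 14.9% lower). Lpin1 stood 2.22 ± 0.091 above 8 h, Dgat2 2.11 ± 0.117, Dgat1 1.87 ± 0.085, Agpat2 1.56 ± 0.076, Gpd1 0.94 ± 0.095 and Gpam 0.83 ± 0.094. The largest adjusted p of these was 5.95e-08. Lpin3 fell by 0.30 ± 0.078 (adjusted p = 0.00348), a call that was lost when only the 2 groups were fitted (adjusted p = 0.0649). Lpin2 fell by 0.21 ± 0.081 (adjusted p = 0.0452), which was lost after median centring (0.112) and without replicate 2 or 3 of either group (adjusted p = 0.161 and 0.0729 for 8 h, 0.119 and 0.129 for 48 h). This call was also lost with a trended prior (0.0507), array weights (0.121), only the 2 groups fitted (0.122) and a replicate block (0.0544).

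Within the first 8 h the same genes followed separate courses. By the F test over the 6 vector groups up to 8 h, 8 of the 9 genes changed, where 51.7% of all genes did, and Pck1 was the exception (adjusted p = 0.685). At 0.5 h none of the 9 passed in limma, and 0 had an unadjusted p under 0.05 (background 1.28% called). At 1 h 2 passed, both higher (background 7.07%, with 2.78% higher). After quantile normalization 6 passed there, 3 of them lower, namely Gpd1 (-0.28), Gpam (-0.20) and Agpat2 (-0.18). At 2 h 4 were higher and 2 lower (10.9% and 17.5% of all genes, 28.3% in all). At 4 h 5 were higher and 1 lower (17.3% and 22.7%, 40.1% in all), and at 8 h again 5 and 1 (24.2% and 21.9%, 46.1% in all). Of all genes called, 39.3% were higher at 1 h and 38.4% at 2 h, and after median centring 51.8% and 48.6%. These comparisons share the 0 h arrays with each other and with the 48 h comparison above.

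**Figure D2:**
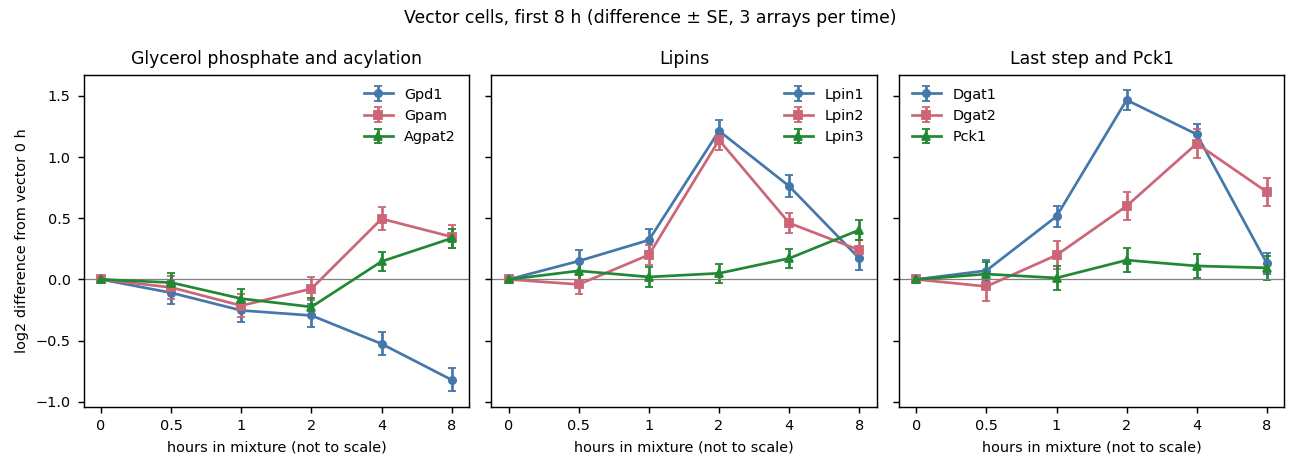
Log2 difference from vector cells at 0 h (y axis, ± SE, 3 arrays per time) over the hours in the mixture (x axis, spaced evenly and not to scale) for the 9 genes in 3 panels. Lpin1, Lpin2 and Dgat1 are highest at 2 h, at 1.21, 1.14 and 1.47, Dgat2 and Gpam at 4 h, and Gpd1 falls to -0.82 at 8 h.

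Lpin1, Lpin2 and Dgat1 had their highest mean of the first 8 h at 2 h. Of the 10309 genes past the F test 9.53% had their highest mean there. Lpin1 read 10.60, 10.49 and 10.67 at 2 h, above all arrays of 0 h, and the difference was 1.21 ± 0.091 (2.32-fold, adjusted p = 4.42e-11). It was 0.76 ± 0.091 at 4 h and 0.17 ± 0.091 at 8 h, where it no longer passed (adjusted p = 0.128). After quantile normalization it did pass at 8 h (0.23, adjusted p = 0.00177). At 1 h Lpin1 was 0.32 ± 0.091 higher (adjusted p = 0.0268), but this call was lost after median centring (0.0579), in the fit of only the groups compared (0.111) and without replicate 2 or 3 of 0 h (0.135 and 0.101) or of 1 h (0.141 and 0.127).

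Lpin2, the lipin that is prominent in liver, read 9.12, 9.21 and 9.15 at 0 h and 10.29, 10.25 and 10.37 at 2 h. The difference was 1.14 ± 0.081 (2.20-fold, adjusted p = 1.52e-11), and it declined to 0.46 ± 0.081 at 4 h. At 8 h it was 0.24 ± 0.081 (adjusted p = 0.0165), a call lost after median centring (0.0649) and without replicate 1 of 0 h (0.0553) or replicate 2 of 8 h (0.0674). Unlike Lpin1, Lpin2 had its highest mean of all 9 groups at 2 h, and its 48 h arrays overlapped those of vector cells at 0 h.

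Dgat1 rose the most of the 9 at 2 h. Its arrays read 12.09, 12.23 and 12.14 there, after 11.07, 11.26 and 11.28 at 1 h, and it had already passed at 1 h (0.52 ± 0.085, adjusted p = 0.000107). The difference from 0 h was 1.47 ± 0.085 at 2 h (2.76-fold, adjusted p = 2.42e-13) and 1.19 ± 0.085 at 4 h. By 8 h the arrays read 10.71, 10.93 and 10.82 and overlapped those of 0 h (0.13 ± 0.085, adjusted p = 0.213). The fall from 4 to 8 h was -1.05 ± 0.085 (adjusted p = 5.64e-10).

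Dgat2 peaked later and came down less. It passed at 2 h (0.60 ± 0.117, adjusted p = 0.000212), stood at 11.02 ± 0.0249 at 4 h, above all 0 h arrays (1.11 ± 0.117, 2.16-fold, adjusted p = 1.16e-08) and was still 0.71 ± 0.117 above 0 h at 8 h (adjusted p = 1.15e-05). Gpam stood at 10.71, 10.82 and 10.68 at 4 h, above its 0 h arrays (0.50 ± 0.094, adjusted p = 7.99e-05), and 0.35 ± 0.094 above 0 h at 8 h (adjusted p = 0.00309). Agpat2 first fell and then rose. It was -0.22 ± 0.076 at 2 h (adjusted p = 0.027), which was lost after median centring (0.173), without replicate 1 of 0 h (0.141) and without replicate 1 or 2 of 2 h (0.0848 and 0.0649), and 0.34 ± 0.076 at 8 h (adjusted p = 6e-04).

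Gpd1 went the other way. Its arrays read 11.57, 11.55 and 11.39 at 0 h, 10.83, 11.04 and 11.06 at 4 h and 10.60, 10.78 and 10.67 at 8 h, so that both later groups lay below all 0 h arrays. The differences were -0.53 ± 0.095 (adjusted p = 4.26e-05) and -0.82 ± 0.095 (adjusted p = 4.57e-08). At 2 h it was -0.29 ± 0.095 (adjusted p = 0.019), a call lost after median centring (0.0909), without replicate 1 or 2 of 0 h (0.082 and 0.0682) and without replicate 1 of 2 h (0.0614).

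Counted over the 4 successive steps from 0.5 to 8 h, 17 of 36 gene and step pairs passed, beside 19.1% of pairs over all genes. From 1 to 2 h Lpin1 rose by 0.89 ± 0.091, Lpin2 by 0.94 ± 0.081 and Dgat1 by 0.95 ± 0.085, with a largest adjusted p of 2.83e-08. From 2 to 4 h Gpam rose by 0.57 ± 0.094 and Agpat2 by 0.37 ± 0.076, while Lpin1 fell by 0.45 ± 0.091 and Lpin2 by 0.68 ± 0.081 (largest adjusted p = 0.000407). In the same interval Dgat2 rose by 0.51 ± 0.117 (adjusted p = 0.00131). Dgat1 fell by 0.28 ± 0.085 (adjusted p = 0.0127), which was lost without replicate 2 of 2 h (0.0628) or replicate 1 of 4 h (0.0825). Lpin3 was 0.12 ± 0.078 and did not pass (adjusted p = 0.312), though it did with array weights (0.15, adjusted p = 0.0389).

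Lpin3 and Pck1 gave little signal. Their means over all arrays were 7.37 and 7.57, next to the olfactory receptor percentile of 7.32. Lpin3 read 7.34, 7.32 and 7.24 at 0 h and 7.82, 7.64 and 7.66 at 8 h, the 1 group that lay above 0 h and passed (0.40 ± 0.078, adjusted p = 0.000101). Its 4 h arrays also lay above those of 0 h, but did not pass (0.17 ± 0.078, adjusted p = 0.0863). That call was gained after median centring (0.0272), after quantile normalization (0.046) and with array weights (0.0456). Pck1 ran from 7.44 ± 0.0963 in the high-Isl1 48 h arrays to 7.70 ± 0.137 in vector cells at 2 h, all neighbours in that order overlapped, and it passed in none of the comparisons of the limma fit with equal weights on all arrays. For low-Isl1 48 h arrays against vector 0 h the difference was -0.02, with a 95% interval from -0.22 to 0.18 on this probe set. Against 8 h the low-Isl1 48 h arrays were at -0.11 (adjusted p = 0.475), but at -0.25 without their replicate 2 (adjusted p = 0.0358) and at -0.27 with array weights (adjusted p = 0.0437). With array weights Pck1 also passed from 1 to 2 h (0.12, adjusted p = 0.0463).

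Promoter sequence was set beside these courses for the lipin genes that rose together at 2 h and for Pck1, which passed no test of the fit with equal weights. RefSeq windows on GRCm38.p6 were at hand for 6 of the 9 genes (10 start sites), and the 250 bases before each start were searched on both strands for TGACG (the core of the cAMP response element TGACGTCA, which contains it), TGTTCT (one arm of a glucocorticoid receptor site), AGGTCA (one arm of a nuclear receptor site) and TTGCNNAA (a C/EBP site). The windows below are Lpin1 (chr12:16610967-16611216, minus strand), the first of 3 Lpin2 starts (chr17:71183282-71183531, plus strand) and Pck1 (chr2:173152823-173153072, plus strand), written 5′ to 3′ on the gene's strand with matches in capitals.
Lpin1: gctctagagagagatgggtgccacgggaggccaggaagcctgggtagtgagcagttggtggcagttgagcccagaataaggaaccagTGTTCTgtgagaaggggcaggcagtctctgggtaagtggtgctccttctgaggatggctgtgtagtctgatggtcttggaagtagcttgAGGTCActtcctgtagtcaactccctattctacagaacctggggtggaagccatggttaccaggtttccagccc
Lpin2: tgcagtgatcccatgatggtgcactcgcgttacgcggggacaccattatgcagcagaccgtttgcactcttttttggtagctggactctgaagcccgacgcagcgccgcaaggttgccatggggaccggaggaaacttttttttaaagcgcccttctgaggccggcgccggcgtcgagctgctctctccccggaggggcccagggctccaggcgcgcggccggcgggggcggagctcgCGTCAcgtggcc
Pck1: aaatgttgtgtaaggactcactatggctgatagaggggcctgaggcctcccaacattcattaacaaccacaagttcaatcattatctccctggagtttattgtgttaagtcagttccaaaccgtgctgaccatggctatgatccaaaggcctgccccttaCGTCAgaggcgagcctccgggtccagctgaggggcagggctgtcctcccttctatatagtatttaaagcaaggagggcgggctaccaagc

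The Pck1 window held CGTCA, the core on the other strand, 90 to 86 bases before the start. The first Lpin2 window held the same letters 12 to 8 bases before its start. Lpin1 held TGTTCT 163 to 158 and AGGTCA 74 to 69 bases before its start and no cAMP core. Of the windows not printed, 1 of 2 for Gpam held 2 cAMP cores and 1 AGGTCA, start 3 of Lpin2 held TGTTCT and TTGCNNAA, and the first for Lpin3 held TGTTCT. The other Gpam window, start 2 of Lpin2, start 2 of Lpin3 and the Agpat2 window held none. Among the Lpin2 starts only the printed one held the cAMP core. Such matches are common: of all 32851 windows 17.8% held TGACG, 16.1% TGTTCT, 14.0% AGGTCA and 9.56% TTGCNNAA, and 1.55% held the full TGACGTCA.

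Before induction ISL1 cells had less of 5 of the 9 transcripts than vector cells and more of 1. The background was 10.4% lower and 15.3% higher (25.7% in all), and the median difference was -0.30, beside -0.01 for all genes. Gpd1 and Dgat2 had the largest differences of the 9. Gpd1 read 7.67, 7.91 and 7.62 in ISL1 cells against 11.57, 11.55 and 11.39 in vector cells. The difference of -3.77 ± 0.095 (13.7-fold lower, adjusted p = 1.25e-20) was the 12th lowest of all 19938 genes. Dgat2 read 8.16, 8.20 and 8.57 against 10.01, 9.92 and 9.80 (-1.60 ± 0.117, 3.04-fold lower, adjusted p = 4.45e-11). Both genes were clear of their vector arrays by more than 1 log2 unit.

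The other differences at 0 h were small. Lpin1 was -0.47 ± 0.091 (adjusted p = 0.000214) and Agpat2 -0.30 ± 0.076 (adjusted p = 0.00329). Gpam was -0.30 ± 0.094 (adjusted p = 0.0195), which was lost after median centring (0.0758), without replicate 1 of vector 0 h (0.11) and without replicate 2 or 3 of ISL1 0 h (0.0538 and 0.0584). Lpin2 alone was higher in ISL1 cells, reading 9.46, 9.57 and 9.52 against 9.12, 9.21 and 9.15 (0.36 ± 0.081, adjusted p = 0.00118). Dgat1 (-0.11 ± 0.085), Lpin3 (-0.16 ± 0.078) and Pck1 (-0.06 ± 0.099) did not pass.

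At 48 h 6 of the 9 genes were lower in the high-Isl1 than in the low-Isl1 arrays and 0 were higher (6 had an unadjusted p under 0.05 in limma). The background was 14% lower and 13.8% higher (27.9% in all), and the median difference was -1.03, beside -0.03 for all genes. Gpd1 had the 7th and Dgat2 the 8th lowest difference among the 19938 genes. Gpd1 read 8.29, 8.22 and 8.29 in the high-Isl1 arrays and 11.59, 11.63 and 11.65 in the low-Isl1 arrays (-3.35 ± 0.095, 10.2-fold lower, adjusted p = 2.12e-19). Dgat2 read 9.64, 9.18 and 9.65 against 12.78, 12.64 and 12.78 (-3.24 ± 0.117, 9.45-fold lower, adjusted p = 3.39e-17). These were the widest gaps among the 9 genes.

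Agpat2 was 11.43 ± 0.127 in the high-Isl1 and 13.35 ± 0.0551 in the low-Isl1 48 h arrays, a difference of -1.93 ± 0.076 (3.80-fold lower, adjusted p = 1.78e-16). Lpin1 was -1.63 ± 0.091 (3.09-fold lower, adjusted p = 1.79e-13), Dgat1 -1.03 ± 0.085 (2.04-fold lower, adjusted p = 3.48e-10) and Gpam -0.90 ± 0.094 (1.87-fold lower, adjusted p = 2.24e-08). In all 6 genes the 3 high-Isl1 arrays lay below the 3 low-Isl1 arrays, where 34.5% of all genes had no overlap in either direction. Lpin2 (0.12 ± 0.081, 95% interval -0.04 to 0.29), Lpin3 (-0.11 ± 0.078) and Pck1 (-0.09 ± 0.099) did not pass. Without replicate 2 of the high-Isl1 arrays the difference of Lpin2 was 0.23 (adjusted p = 0.0318).

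**Figure D3:**
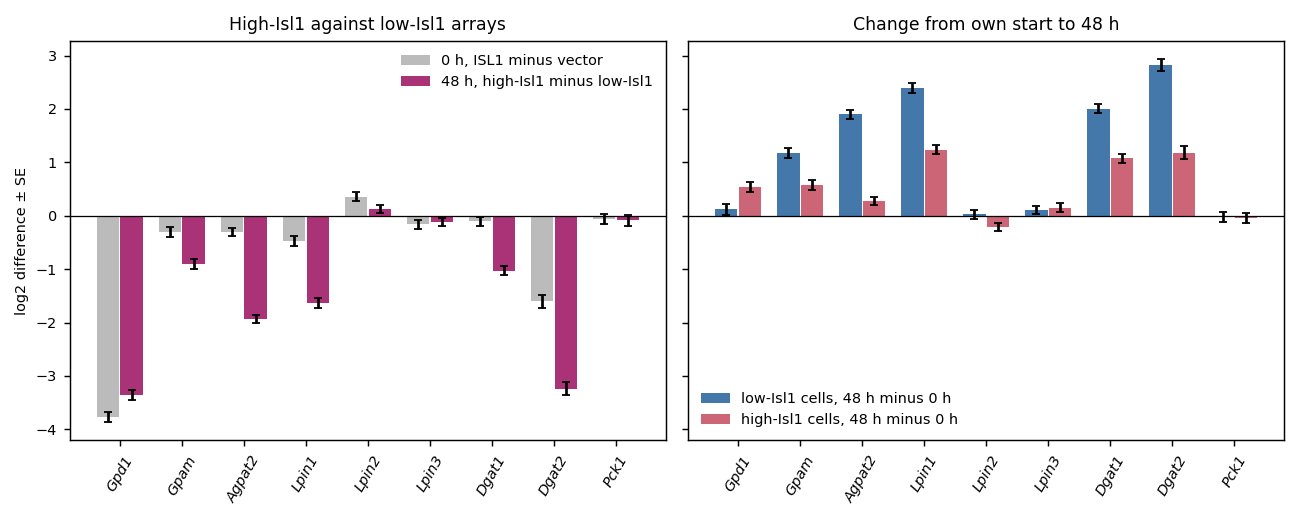
Log2 differences ± SE (y axis) for the 9 genes (x axis), 3 arrays per group. The left panel sets high-Isl1 against low-Isl1 arrays at 0 h (grey) and 48 h (purple), and the right panel sets 48 h against the start with the same Isl1 signal for low-Isl1 (blue) and high-Isl1 cells (red). The gap of Gpd1 is large at both times, whereas that of Agpat2 goes from -0.30 to -1.93.

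Whether the gap between high-Isl1 and low-Isl1 arrays differed between the times was tested directly, and the difference passed for 6 of the 9 genes (5 lower and 1 higher, where 13.2% and 11.4% of all genes were, 24.5% in all). The gap had widened by -1.64 ± 0.166 for Dgat2 (adjusted p = 1.92e-08), -1.62 ± 0.108 for Agpat2 (1.58e-11), -1.15 ± 0.129 for Lpin1 (9.21e-08), -0.92 ± 0.120 for Dgat1 (1e-06) and -0.61 ± 0.132 for Gpam (0.000869). For Gpd1 it had narrowed, by 0.42 ± 0.134 (adjusted p = 0.0217), which was lost without replicate 1 or 2 of vector 0 h (0.0573 and 0.0501) and without replicate 1 or 3 of ISL1 0 h (0.0567 and 0.0715). The same values are the differences between the changes of high-Isl1 and low-Isl1 cells from 0 h to 48 h. In high-Isl1 cells 6 of the 9 genes rose from their own 0 h start and 1 fell (14.2% and 19% of all genes, 33.2% in all). Lpin1 rose by 1.24 ± 0.091, Dgat2 by 1.18 ± 0.117, Dgat1 by 1.08 ± 0.085, Gpam by 0.58 ± 0.094, Gpd1 by 0.53 ± 0.095 and Agpat2 by 0.27 ± 0.076, with a largest adjusted p of 0.00596. The fall, of Lpin2 (-0.21 ± 0.081, adjusted p = 0.0485), was lost after median centring (0.111), after quantile normalization (-0.09, adjusted p = 0.22), without replicate 1, 2 or 3 of ISL1 0 h (0.0532, 0.161 and 0.0999) and without replicate 2 or 3 of the high-Isl1 48 h arrays (0.378, at a difference of -0.10, and 0.0548). A trended prior (0.0546), the fit of only the groups compared (0.0837) and a replicate block (0.0574) lost it as well.

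The high-Isl1 48 h arrays were also set against vector cells at 0 h, which is the vector comparison by title. Here 3 of the 9 genes were higher and 2 lower (18.1% and 18.7% of all genes, 36.8% in all). Dgat1 (0.98 ± 0.085, adjusted p = 4.12e-10) and Lpin1 (0.77 ± 0.091, adjusted p = 1.13e-07) were higher, and Agpat2 did not pass (-0.03 ± 0.076). Gpam was 0.28 ± 0.094 (adjusted p = 0.0191), lost without replicate 2 or 3 of vector 0 h (0.0768 and 0.071) and without replicate 1 or 3 of the 48 h arrays (0.116 and 0.0921). Gpd1 was -3.24 ± 0.095 (adjusted p = 8.93e-20). Dgat2 was -0.42 ± 0.117 (adjusted p = 0.00529), lost without replicate 2 of the 48 h arrays (-0.26, adjusted p = 0.0769).

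Between high-Isl1 and low-Isl1 arrays, and by 48 h in low-Isl1 cells, adipocyte markers went the way of most of these genes. Within the first 8 h the markers did not. Of the 11 measured (among them Adipoq, Fabp4, Plin1, Cidec and Cd36), 10 were lower in ISL1 than in vector cells at 0 h and 1 did not pass. The median was -2.05, and the summed log2 level was 90.1 to 90.9 against 111 to 113. Adipoq (6.56) and Cd36 (5.72) lay under the olfactory receptor percentile in these ISL1 cells, so that these sizes are not firm. At 48 h 10 were lower in the high-Isl1 arrays (sum 108 to 109 against 124 to 125), and from vector 0 h to the low-Isl1 48 h arrays 9 rose. From 0 to 8 h in vector cells 8 fell and 0 rose, with sums of 107 to 108 at 8 h. Of the 9 genes 5 were higher and 1 lower there. At 2 h 3 of the markers were lower and 0 higher, while 4 of the 9 genes were higher and 2 lower. Leptin (Lep) stayed at 6.41 to 6.67 in all group means, under the olfactory receptor percentile. In bulk RNA fewer cells of a type and less RNA per cell cannot be told apart, so the share of cells that had begun to make fat was not measured. Of the 6 macrophage markers 1 was higher and 1 lower in the 48 h comparison, with sums of 42.4 to 42.6 against 42.6 to 43.1, and of 4 endothelial, 5 skeletal muscle and 3 hepatocyte markers none passed there in limma, and 0 had an unadjusted p under 0.05. The 8 fibroblast and preadipocyte markers (such as Col1a1, Thy1 and Pdgfrb) summed to 101 in vector cells and 98.0 to 98.4 in ISL1 cells at 0 h, where 5 were lower in the latter. At 48 h the sums were 91.8 to 92.7 in low-Isl1 and 91.5 to 92.4 in high-Isl1 arrays, and all 8 were lower in low-Isl1 48 h arrays than in vector cells at 0 h. From 0 to 8 h 6 of the 8 fell, to sums of 95.8 to 96.0. Over the same course the macrophage sums went from 42.4 to 42.8 at 0 h to 44.8 to 45.1 at 4 h and 44.1 to 44.4 at 8 h, where 2 of 6 markers were higher, and at 4 h Cd68 stood at 9.33 after 8.31 and Cd14 at 9.33 after 8.32. Of the 4 endothelial markers 1 was higher at 8 h, when Cdh5 stood at 7.98 after 7.17. Of all genes 10.4% were lower and 15.3% higher in ISL1 cells at 0 h. In the high-Isl1 48 h arrays 14% were lower and 13.8% higher. From vector 0 h to the low-Isl1 48 h arrays 21.3% rose and 41.4% differed in all. From 0 to 2 h 10.9% rose and 17.5% fell, and from 0 to 8 h 24.2% and 21.9%. The macrophage and endothelial counts at 8 h were near these shares. The part of all these markers in the results was not tested.

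The gene most like Gpd1 over the 9 group means was Adipoq, which encodes the fat cell hormone adiponectin (Pearson r = 0.997), followed by Bscl2 (0.984), the seipin gene of droplet formation, and Lgals12 (0.981). These values were picked as the highest among the 4195 genes whose group means span at least 1 log2 unit, and they rest in part on the gap between high-Isl1 and low-Isl1 groups. Over the 7 low-Isl1 groups alone, r between Gpd1 and Adipoq was 0.945. Adipoq read 10.94, 10.73 and 10.60 in vector cells and 6.47, 6.60 and 6.62 in ISL1 cells at 0 h. At 48 h it read 10.95, 10.59 and 10.98 in the low-Isl1 and 7.25, 7.03 and 7.41 in the high-Isl1 arrays. Its vector arrays at 0 h and its low-Isl1 48 h arrays thus overlapped. The Adipoq means of ISL1 cells at 0 h (6.56) and of the high-Isl1 48 h arrays (7.23) lay under the olfactory receptor percentile (7.32). The sizes of its gaps to the low-Isl1 groups are therefore not firm, and r over the 9 groups includes these values.

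**Figure D4:**
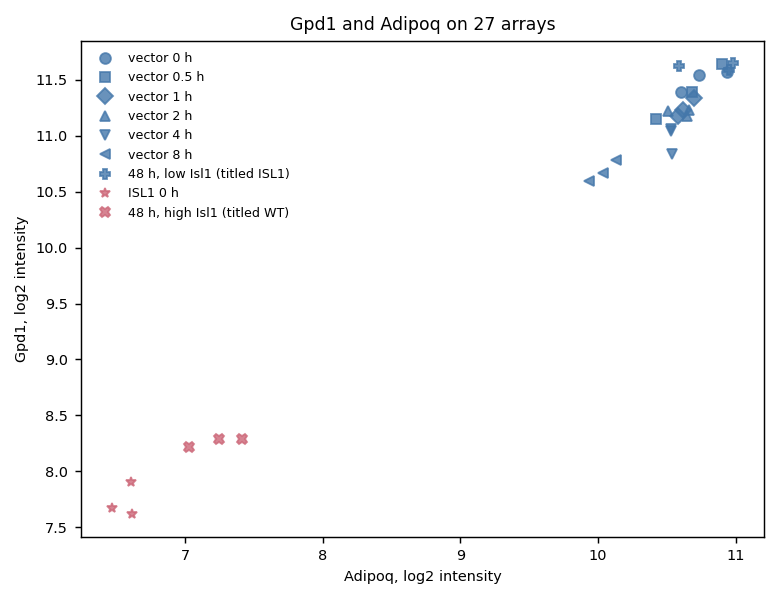
Gpd1 (y axis) against Adipoq (x axis), log2 intensity on each of the 27 arrays, with 1 symbol per group. The 6 high-Isl1 arrays (red) reach at most 8.29 for Gpd1 and 7.41 for Adipoq, and the 21 low-Isl1 arrays (blue) are at least 10.60 and 9.93. Both red group means of Adipoq lie under the 95th percentile of olfactory receptor probe sets (7.32).

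Some of the genes resembled each other in pattern. Lpin1 and Dgat1 were each other's near neighbours (r = 0.955 over the 9 group means), with Lrig1 (0.958) first for Lpin1 and Hipk2 (0.949 and 0.946) on both lists, Psen2 (0.932) completing that of Dgat1. Gpam and Agpat2, the successive acylation genes, had r = 0.92. Next to Agpat2 stood Slc5a6 (0.994), Pex16 (0.994) and G0s2 (0.988), and next to Gpam Pex10 (0.976), Miga2 (0.967) and Mcrip2 (0.963). Dgat2 was nearest to Mrap (0.956), Rpia (0.946) and Trf (0.946). Lpin2 had r between -0.34 and 0.61 with the other members, and nearest to it were Fem1b (0.9504), St7 (0.920) and Raph1 (0.915). These are descriptions over 9 means from shared libraries.

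The order of the levels within a gene was clear only in part. For Dgat1 the ranges of 5 of the 8 neighbouring pairs were apart, in the order low-Isl1 48 h, 2 h, 4 h, high-Isl1 48 h, 1 h and 8 h, after which 8 h, 0.5 h, 0 h and ISL1 0 h overlapped in turn. For Dgat2 the order was low-Isl1 48 h, 4 h, 8 h, 2 h, 1 h, 0 h, 0.5 h, high-Isl1 48 h and ISL1 0 h, where 8 h overlapped 2 h and 0 h overlapped 0.5 h. For Gpd1 the low-Isl1 48 h arrays were highest, each of 0, 0.5, 1 and 2 h overlapped the next, and then 4 h, 8 h, high-Isl1 48 h and ISL1 0 h each lay apart. Lpin1 was ordered low-Isl1 48 h, 2 h, then high-Isl1 48 h and 4 h overlapping, then 1, 8, 0.5 and 0 h overlapping in turn, with ISL1 0 h apart and lowest. For Agpat2 the low-Isl1 48 h arrays, 8 h and the lowest group, ISL1 0 h, lay apart from their neighbours, and for Gpam the low-Isl1 48 h arrays alone did. Lpin2 had 2 h and 4 h apart at the top and Lpin3 8 h.

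Other genes around glycerol 3-phosphate and phosphatidic acid were counted from a list of 12 measured genes. In low-Isl1 cells at 48 h 7 were higher and 4 lower than in vector cells at 0 h (median 0.32, all genes 0.06). Gpat3, a glycerol 3-phosphate acyltransferase of the endoplasmic reticulum that acts at the same step as Gpam, went from 8.78 to 11.93 (3.15 ± 0.119, adjusted p = 2.2e-17), and Agpat5 rose by 1.04 ± 0.097. The glycerol channel gene Aqp7 was -1.25 ± 0.110 and the mitochondrial dehydrogenase gene Gpd2 -0.48 ± 0.086. Between high-Isl1 and low-Isl1 48 h arrays 4 were higher and 4 lower, with Gpat3 at -2.83 ± 0.119 and Aqp7 at -0.80 ± 0.110, and Agpat4 (0.79 ± 0.091) and Agpat5 (0.71 ± 0.097) higher. At 0 h 7 were higher and 2 lower in ISL1 cells, with Aqp7 (-2.26 ± 0.110) and Gpat3 (-0.98 ± 0.119) lower and Lclat1 (0.53 ± 0.075) and Agpat5 (0.41 ± 0.097) higher. At 8 h 7 were higher and 4 lower than at 0 h, led by Agpat5 (2.11 ± 0.097) and Agpat4 (1.03 ± 0.091), against Lclat1 (-1.52 ± 0.075) and Aqp7 (-1.06 ± 0.110). Aqp7 lay under the olfactory receptor percentile in ISL1 cells at 0 h (7.03) and in the high-Isl1 48 h arrays (7.24), so that the sizes of its differences there are not firm. Shares of all genes stand beside the counts of this list and of those below. For low-Isl1 48 h arrays against vector 0 h 21.3% were higher and 41.4% differed in all. At 48 h 13.8% were higher and 14% lower in high-Isl1 arrays (27.9% in all), and at 0 h 15.3% and 10.4% in ISL1 cells (25.7%). At 8 h 24.2% were higher and 21.9% lower than at 0 h (46.1% in all). The counts were not tested against these shares.

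Of 11 measured genes around glyceroneogenesis, the pathway of Pck1, 7 were higher and 2 lower at 48 h in low-Isl1 cells (median 0.57). Pcx, the pyruvate carboxylase gene of the step before Pck1, rose from 10.74 to 13.04 (2.29 ± 0.076, adjusted p = 1.5e-18), and the dicarboxylate carrier gene Slc25a10 by 1.79 ± 0.082. Pck2, the mitochondrial counterpart of Pck1, was -0.47 ± 0.080, and the malic enzyme gene Me1 -0.28 ± 0.073. In the high-Isl1 48 h arrays 8 were lower and 1, the kinase gene Pdk4 (0.28 ± 0.064), was higher, with Slc25a10 at -1.001 ± 0.082 and Got1 at -0.75 ± 0.066. At 0 h 5 were higher and 3 lower in ISL1 cells, Pcx at -0.94 ± 0.076 and Pdk4 at -0.63 ± 0.064 against Mdh1 (0.42 ± 0.067) and Got2 (0.31 ± 0.050). At 8 h 5 rose and 5 fell, among them Got1 (1.39 ± 0.066), Pcx (0.83 ± 0.076), Pck2 (-1.12 ± 0.080) and Me1 (-0.80 ± 0.073).

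Of 8 measured genes of triglyceride breakdown, 7 rose and 1 fell in low-Isl1 cells by 48 h (median 1.58), led by the hormone-sensitive lipase gene Lipe (2.34 ± 0.084) and the lipase activator gene Abhd5 (2.06 ± 0.074), with Ces1d at -0.48 ± 0.115. All 8 were lower in the high-Isl1 48 h arrays (median -0.95), among them Ces1d (-1.50 ± 0.115) and the lipase inhibitor gene G0s2 (-1.38 ± 0.084). At 0 h 6 were lower in ISL1 cells, with Ces1d at -1.80 ± 0.115 and Ces1f at -1.10 ± 0.141. The lower levels behind these values, 6.99 and 6.70 in ISL1 cells at 0 h and 6.80 for Ces1d in the high-Isl1 48 h arrays, lay under the olfactory receptor percentile, so that the sizes are not firm. At 8 h 1 rose, Abhd5 (1.20 ± 0.074), and 3 fell, among them Ces1d (-0.58 ± 0.115) and Lipe (-0.38 ± 0.084).

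The list of lipin control and droplet growth held 15 measured genes. In low-Isl1 cells 8 rose and 3 fell by 48 h, with the droplet genes Fitm2 (2.38 ± 0.073) and Cidec (2.16 ± 0.105) up and Plin3 (-0.58 ± 0.072) and Cideb (-0.56 ± 0.084) down. High-Isl1 48 h arrays had 7 lower, led by Cidec (-2.84 ± 0.105) and Plin1 (-2.22 ± 0.073), and 4 higher, led by Acsl4 (0.63 ± 0.058) and Plin3 (0.52 ± 0.072). At 0 h 6 were lower in ISL1 cells, with Fabp4 at -3.15 ± 0.085 and Cidec at -2.32 ± 0.105, and 3 higher. The largest of the latter were Acsl4 (0.33 ± 0.058) and Cnep1r1 (0.30 ± 0.063), which encodes the regulatory partner of the lipin phosphatase. At 8 h 9 fell, such as Plin2 (-1.11 ± 0.081) and Plin3 (-0.91 ± 0.072), and 2 rose, Acsl4 (2.54 ± 0.058) and Fitm2 (1.39 ± 0.073).

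Of 14 transcription factor genes tied to this pathway, 8 rose and 2 fell by 48 h in low-Isl1 cells, led by Cebpa (2.09 ± 0.101) and Cebpb (1.98 ± 0.086), with the glucocorticoid receptor gene Nr3c1 at -0.83 ± 0.091 and Srebf2 at -0.47 ± 0.068. In the high-Isl1 48 h arrays 7 were lower, led by Cebpa (-1.98 ± 0.101) and the coactivator gene Ppargc1a (-1.93 ± 0.103), and 3 higher, among them Srebf2 (0.59 ± 0.068) and Cebpd (0.35 ± 0.086). At 0 h 6 were lower in ISL1 cells, with Ppargc1a at -1.61 ± 0.103 and Cebpa at -1.14 ± 0.101. At 8 h 4 rose and 4 fell, among them Cebpb (2.02 ± 0.086), Cebpd (0.65 ± 0.086), Nr3c1 (-1.49 ± 0.091) and Ppargc1a (-0.75 ± 0.103). For the pathway genes named here and in the preceding 3 paragraphs, the adjusted p of each named difference was under 0.05 in the limma fit.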

How the data were processed

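The deposited values are log2 intensities per probe set, 1 array per sample. Per the submitters' processing notes the authors made them with RMA, which corrects background, quantile-normalizes arrays and summarizes probes; no version is named there. The log2 base was settled from the range of the values (3.35 to 14.85). Of 28853 probe sets 21789 carried 1 gene symbol, and of several for 999 genes the brightest on average stood for the gene (19938 genes). In limma 3.58.1 (R 4.3.3) every group had its own mean, and all 27 arrays shared 1 estimate of the spread (empirical Bayes, prior df 6.562), with Benjamini-Hochberg adjustment over all genes within each contrast, two-sided. The fit was run on simulated data with independent arrays. That run does not show its behaviour where arrays are correlated. The number of arrays limits the precision. Same-numbered arrays correlated above 0.1 in all 3 pairs for 4 of 36 pairs of groups, so numbers were not taken as pairs. These 4 were 0.5 h with 1 h, 0.5 h with 4 h, 1 h with 4 h, and high-Isl1 with low-Isl1 48 h arrays (0.314, 0.547 and 0.217). The members and all lists (7 pathway, 6 marker, 125 of 136 entries measured) were chosen with earlier results of these data known. Named beside the members were the 2 largest rises and falls past the test per list and comparison, and the 3 genes most like each member. Alternatives were centring, quantile normalization, a filter on dim genes, every probe set alone, a trended prior, array weights, smaller fits, a replicate block, each array left out and 48 h read by title. Promoter windows are RefSeq's (GRCm38.p6); protein sequences were not used here.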

Additional observations from a re-analysis of the deposited data

Results flagged for a closer look

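The difference between high-Isl1 and low-Isl1 arrays was not the same at 48 h as at 0 h for 6 of the 9 genes, by the test of that difference in the limma fit. The change of the log2 difference (48 h minus 0 h) was -1.64 for Dgat2, -1.62 for Agpat2, -1.15 for Lpin1, -0.92 for Dgat1, -0.61 for Gpam and 0.42 for Gpd1. Gpd1 thus moved against the other 5, and its call depended on single arrays at 0 h. With the 48 h groups read by title, 7 of the 9 genes passed this test.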

How the results depend on the processing

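Of 1152 member differences recomputed under the other settings, 1098 stayed on their side of the threshold, 25 lost the call, 29 gained it and 0 of those past the threshold in either fit changed sign. Of 918 with an array left out, 862 stayed, 50 lost and 6 gained the call. The count of members that differed at 1 h (2 of 9) was 1 after median centring and in the fit of only the groups compared, 4 with array weights and 6 after quantile normalization; the cause was not tested. With an array left out it ran from 1 to 3. For the other comparisons it ran from 4 to 6 at 2 h, 6 to 6 at 4 h, 5 to 6 at 8 h, 5 to 5 and 7 to 8 for low-Isl1 48 h arrays against 0 h and 8 h, 5 to 6 for ISL1 against vector at 0 h, 6 to 7 at 48 h, 6 to 7 and 4 to 5 for high-Isl1 48 h arrays against ISL1 and vector 0 h, 5 to 7 for the difference of effects, 14 to 19 for the steps, 8 to 8 for the F test and 0 to 0 at 0.5 h. With the replicate number as a block, the counts were 7 against 8 h for low-Isl1 and 6 against ISL1 0 h for high-Isl1 48 h arrays, where Lpin2 lost its call, and for each other count the number was that of the fit without it. Among all genes called, the share that was higher for 1 h against 0.5 h was 51%, and 72.1% after median centring; for 8 h against 4 h the shares were 57.2% and 44%. All 9 members passed the filter on dim genes. Lpin3 and Pck1 lie near the signal of olfactory receptor probe sets, which limits what their values can show.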

Other observations

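The branch to phospholipids shares phosphatidic acid and diacylglycerol with triglyceride assembly. Of 17 measured genes 7 were higher and 3 lower in low-Isl1 48 h arrays than in vector cells at 0 h (median 0.13), with Pemt (1.14 ± 0.097) and Selenoi (0.73 ± 0.062) up and Pcyt1b (-2.41 ± 0.106) and the CDP-diacylglycerol synthase gene Cds2 (-0.65 ± 0.073) down. In high-Isl1 48 h arrays 6 were higher, among them Pcyt1b (1.04 ± 0.106) and Cds2 (0.48 ± 0.073), and 3 lower, among them Selenoi (-0.45 ± 0.062) and Pisd (-0.27 ± 0.065). At 0 h 2 were higher in ISL1 cells, Pemt (0.40 ± 0.097) and Crls1 (0.30 ± 0.079), and 1 lower, Pcyt1a (-0.28 ± 0.092). At 8 h 8 rose, led by the choline kinase gene Chka (1.12 ± 0.092) and Etnk1 (1.04 ± 0.087), and 3 fell, led by Pcyt1b (-1.82 ± 0.106) and Cds2 (-0.68 ± 0.073). Of all genes 21.3% were higher and 41.4% differed in the first of these comparisons. In the 48 h comparison 13.8% were higher and 14% lower (27.9% in all), and at 0 h 15.3% and 10.4% (25.7%). At 8 h 24.2% rose and 21.9% fell (46.1%). The counts were not tested against these shares.

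Of 11 genes around diacylglycerol, 3 rose and 2 fell in low-Isl1 cells by 48 h, where 21.3% of all genes were higher and 41.4% differed in either direction, with Plpp1 (0.33 ± 0.058) and Dgkd (0.25 ± 0.064) against the diacylglycerol kinase gene Dgka (-0.95 ± 0.092) and Plpp3 (-0.45 ± 0.055). In high-Isl1 48 h arrays 1 was higher, Dgka (0.61 ± 0.092), and 2 lower, Plpp3 (-0.34 ± 0.055) and Dgkq (-0.26 ± 0.064). Of all genes 13.8% were higher and 14% lower (27.9% in all), so that this count was near the background. At 0 h 1 was higher in ISL1 cells, Plpp2 (0.39 ± 0.087), and 2 lower, Plpp3 (-0.60 ± 0.055) and Plpp1 (-0.39 ± 0.058). The background was 15.3% higher and 10.4% lower (25.7% in all), again near the count. At 8 h 5 rose, among them Plpp2 (0.79 ± 0.087) and Mogat2 (0.31 ± 0.117, at 6.93 and 7.24 under the olfactory receptor percentile at both times), and 3 fell, among them Plpp3 (-0.88 ± 0.055) and Dgka (-0.79 ± 0.092). Of all genes 24.2% rose and 21.9% fell (46.1% in all).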
